A study of Homo sapiens with 15 samples.

Results

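The genes described here carry out MHC class I antigen processing: B2M, HLA-E, TAP1, TAP2, TAPBP, PSMB8, PSMB9, PSMB10, NLRC5 and ERAP1. They were chosen by name, with earlier results of these data known. Every probe set that names only the gene in question was used, which gave 41 probe sets. All 10 genes had a probe set of their own, among 18244 genes with one on the array. All 10 were also among the 12721 genes tested, which are those whose highest line mean reached the median of all values, an intensity of 80.6. TAP1, PSMB9 and NLRC5 reached that level in SK-N-AS only, so these 3 genes had to be brightest there once they passed. HLA-E and PSMB8 reached it in SK-N-AS and BE(2)-C, and B2M and PSMB10 reached it in all 5 lines.

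Class I molecules show peptides from inside the cell to CD8+ T cells. Proteasomes cut proteins into peptides, and cells exposed to interferon gamma replace constitutive catalytic subunits with the inducible subunits PSMB8, PSMB9 and PSMB10. The TAP1 and TAP2 heterodimer moves peptides into the endoplasmic reticulum, where ERAP1 trims them and tapasin (TAPBP) helps load them onto a heavy chain paired with beta-2-microglobulin (B2M). HLA-E is a heavy chain that also engages inhibitory receptors of natural killer cells, and NLRC5 is a transactivator of class I genes. Neuroblastoma, a tumour of the sympathoadrenal lineage, is known for low surface levels of class I molecules.

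The samples are total RNA from established human neuroblastoma lines, each of the 5 on 3 expression arrays: SK-N-AS and SH-SY5Y, then NGP, BE(2)-C and KELLY. No treatment is given in the labels, and all lines were grown with 10% serum. From general knowledge of these lines, NGP, BE(2)-C and KELLY carry an amplified MYCN gene and SK-N-AS and SH-SY5Y do not, and SH-SY5Y and BE(2)-C are cloned sublines. The labels number the replicates without stating that they were separate cultures, so the p-values reflect the scatter of these samples alone, and that scatter may be technical.

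The values are the authors' deposited intensities, and their overall brightness was left unequal between arrays. The median intensity of an array ran from 51.9 to 126, being highest in SK-N-AS, while the median of the 33 brighter ERCC spike-in probe sets stayed between 8.85 and 9.12 on the log2 scale. Differences are therefore given on the deposited scale and again on centred arrays, where each array is set relative to its own median over the tested genes. Calls required an absolute log2 difference of 1 or more and an adjusted p (limma, Benjamini-Hochberg) below 0.05. The lowest correlation within a line was 0.993, the highest between lines 0.892, and identical arrays numbered 0. MYCN itself lay at 9363 ± 163 (KELLY) or above in the amplified lines and at 152 ± 30.2 (SH-SY5Y) or below in the rest (SD, n = 3 each). In bulk RNA, a lower share of cells that express a gene and less of its RNA per cell cannot be told apart.

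Promoter sequences were looked up because these genes are known targets of interferon regulatory factors, which bind an element with a repeated GAAA core. RefSeq windows of 300 bases (GRCh38.p14, 250 before and 50 after a gene's start) matched 8 of the 10 genes in 11 windows. The element core, spelled GAAANNGAAA and searched on both strands with overlaps allowed, was present in 7 of the 11 windows and in 7 of the 8 genes, against 3.57% of all 35116 windows. Stretches of 30 bases around it are shown, 5′ to 3′ on the gene's strand, to let its form be compared between genes. Capitals mark the core or its reverse complement.
TAP1, chr6:32853816-32853845 (minus): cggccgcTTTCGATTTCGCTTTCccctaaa
TAP2, chr6:32838778-32838807 (minus): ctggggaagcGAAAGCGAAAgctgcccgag
TAPBP, chr6:33314076-33314105 (minus): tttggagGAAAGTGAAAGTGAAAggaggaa
PSMB8, chr6:32844032-32844061 (minus): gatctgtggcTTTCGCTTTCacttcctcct
PSMB10, chr16:67936852-67936881 (minus): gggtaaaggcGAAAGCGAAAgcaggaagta
B2M, chr15:44711366-44711395 (plus): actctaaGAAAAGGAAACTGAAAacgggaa
ERAP1, chr5:96807924-96807953 (minus): cgggctccacTTTCACTTTCggtcctgggg
The core overlapped itself in TAP1, TAPBP and B2M. A match of letters is a description and not evidence of binding.

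TAP1 and PSMB9 are transcribed in opposite directions from starts 487 bases apart, and their windows share 13 bases. The TAP1 core lies 119 bases before the TAP1 start and 354 bases before the PSMB9 start, beyond the PSMB9 window, which held no match to these letters. The 250 bases before the TAP1 start are shown because they lie between this divergent pair. Capitals mark the interferon element core and a match to GGGACTTTCC, the kB motif bound by NF-kB.
TAP1 upstream, chr6:32853705-32853954 (minus): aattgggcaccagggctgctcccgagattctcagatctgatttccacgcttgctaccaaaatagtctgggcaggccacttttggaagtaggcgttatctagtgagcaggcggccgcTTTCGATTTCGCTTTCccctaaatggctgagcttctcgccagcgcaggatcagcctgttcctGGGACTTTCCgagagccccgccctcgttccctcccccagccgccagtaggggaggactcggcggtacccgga
The kB letters occurred, on either strand, in the windows of 2 of the 8 genes, TAP1 and B2M, against 0.191% of all windows. The GAS motif TTCNNNGAA occurred in 2 of the 8 genes (another window of TAP1 and PSMB8), against 7.66% of all windows.

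SK-N-AS stood apart from the other lines for the class I processing genes. All 10 genes had every SK-N-AS array above every other array, on the deposited scale, where 42% of all tested genes did, and on centred arrays, where 18.3% did. Called higher in SK-N-AS than in each of the other 4 lines were 8 of the 10 genes on both scales (HLA-E, TAP1, TAP2, TAPBP, PSMB8, PSMB9, NLRC5 and ERAP1), against 12.6% of tested genes on the deposited scale and 5.61% on centred arrays. Without the 3 genes that reached the filter through SK-N-AS only, these were 5 of 7 genes. The count of genes with separated arrays and the medians that follow include those 3. The median of the 10 differences between SK-N-AS and the mean of the other 4 lines was 3.66 on the log2 scale, against 0.77 over all tested genes. On centred arrays these medians were 2.79 and -0.10.

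**Figure D1:**
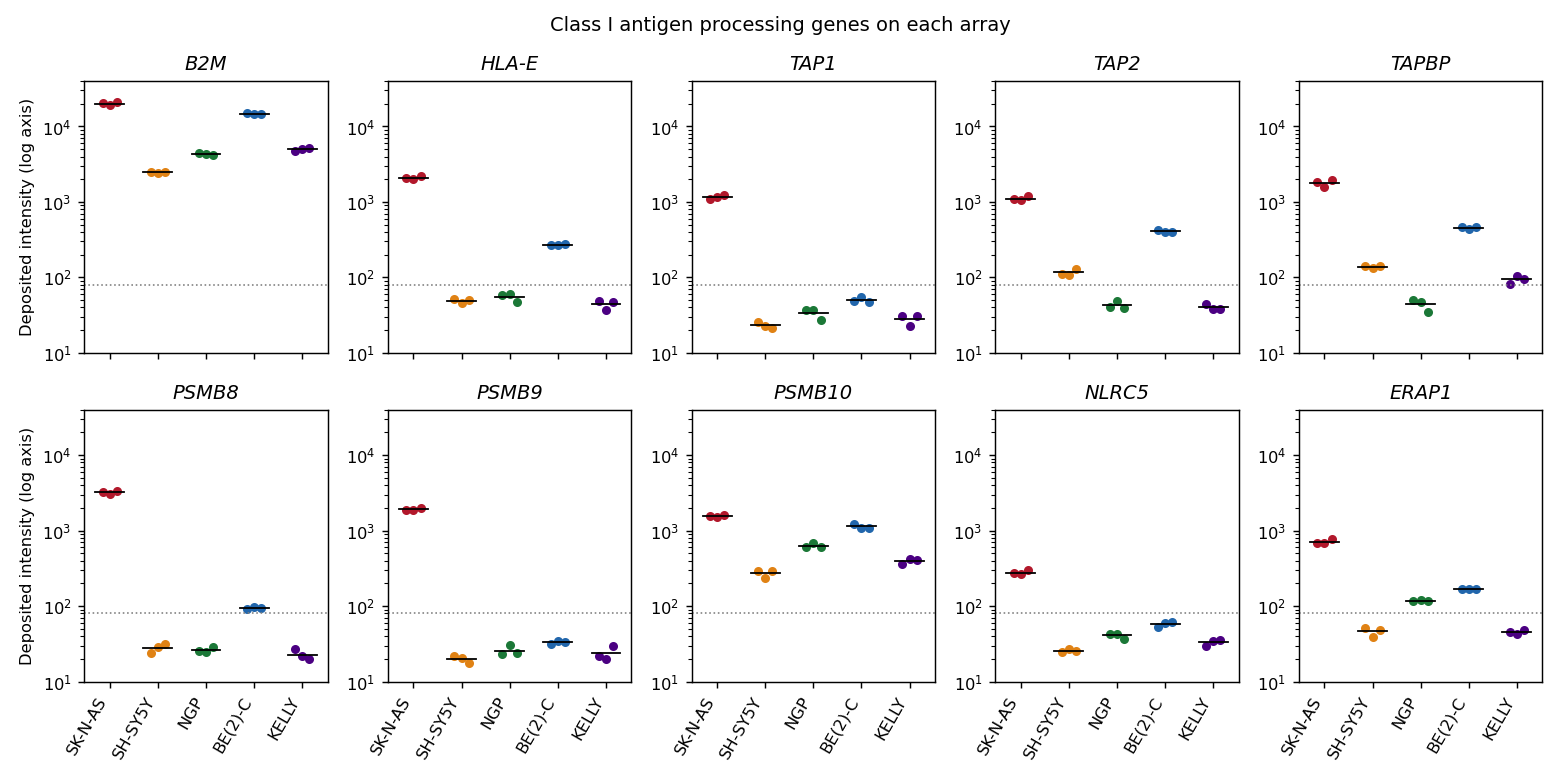
Deposited intensity (log axis) of the 10 genes on each of 15 arrays, by line. Points are single arrays, black bars the mean of 3, and the dotted line the filter at 80.6. All SK-N-AS points lie above all others in every panel, and the distance is largest for PSMB8 and PSMB9 and smallest for B2M and PSMB10.

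The light chain B2M was bright in every line. It read 20286, 19017 and 21142 in SK-N-AS, against 2504, 2391 and 2520 in SH-SY5Y, 4427, 4352 and 4241 in NGP, 15099, 14473 and 14464 in BE(2)-C and 4799, 5051 and 5170 in KELLY. SK-N-AS and BE(2)-C were thus the high lines and SH-SY5Y the lowest, without overlap between lines. SK-N-AS exceeded SH-SY5Y by 3.03 on the log2 scale (SE 0.07, limma adjusted p = 4.84e-23) and BE(2)-C by 0.46 (SE 0.07, adjusted p = 8.92e-07), which is under the fold threshold. On centred arrays SK-N-AS stood 1.69 above SH-SY5Y, 1.40 above NGP, 0.89 above KELLY and 0.25 above BE(2)-C, of which the first 2 were called.

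HLA-E separated the lines more widely. It read 2056, 2004 and 2188 in SK-N-AS, against 51.2, 45.8 and 50.4 in SH-SY5Y, 58.0, 60.6 and 46.7 in NGP, 272, 268 and 275 in BE(2)-C and 48.7, 37.4 and 47.1 in KELLY. BE(2)-C lay between SK-N-AS and the other 3 lines, which overlapped with each other. SK-N-AS exceeded BE(2)-C 7.64-fold (log2 2.93, SE 0.11, limma adjusted p = 2.53e-18) and the 3 lines below the filter at least 25.5-fold, counting those lines at the filter. Folds written with "at least" are all set against the filter in this way. All 6 HLA-E probe sets carry the _s_at or _x_at mark of sets that can match related transcripts, so signal from other class I heavy chains cannot be told apart from HLA-E.

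Among the other heavy chains, the probe sets that stand for HLA-B, HLA-C, HLA-F and HLA-G carry the _x_at mark too. HLA-B averaged 3418 ± 152 over the SK-N-AS arrays, against 112 ± 10.1 for SH-SY5Y, 159 ± 15.2 for NGP, 231 ± 12.9 for BE(2)-C and 111 ± 4.31 for KELLY (SD over 3 arrays here and below). The unmarked HLA-B probe set was below the filter in every line, with 42.6 ± 3.37 for SK-N-AS, against 26.2 ± 3.05 (SH-SY5Y) to 33.1 ± 10.2 (BE(2)-C). HLA-C averaged 2406 ± 132 over the SK-N-AS arrays, against at most 213 ± 7.23 (BE(2)-C) for another line, on the probe set that stands for the gene. HLA-B and HLA-C were called higher in SK-N-AS than in all 4 other lines on both scales, by 4.54 and 5.05 on the log2 scale over their mean, and HLA-F and HLA-G were not. Another HLA-C probe set ran differently: SK-N-AS arrays averaged 83.0 ± 3.76 on it, below BE(2)-C (704 ± 32.5), KELLY (173 ± 4.34) and SH-SY5Y (104 ± 12.1). The HLA-F set used read 86.7 ± 2.47 in SK-N-AS and 66.2 ± 5.79 in BE(2)-C. HLA-F sets that were dimmer in the other lines read 161 ± 23.2 and 132 ± 4.64 in SK-N-AS, against at most 29.8 ± 5.54 and 29.2 ± 5.04 elsewhere. An HLA-F set without the _x_at mark read 77.0 ± 11.8 in SK-N-AS, under the filter, against 10.3 ± 2.74 or less. The remaining HLA-F sets were below the filter in every line and differed less or not at all.

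The transporter subunits differed in how low they were outside SK-N-AS. TAP1 read 1096, 1180 and 1221 in SK-N-AS, against 25.4, 22.9 and 21.2 in SH-SY5Y, 36.9, 37.3 and 27.7 in NGP, 49.5, 55.8 and 47.1 in BE(2)-C and 31.2, 22.4 and 30.6 in KELLY. These 4 lines lay below the filter, so SK-N-AS was at least 14.3-fold above each. The measured differences were 4.50 (BE(2)-C) to 5.60 (SH-SY5Y) on the log2 scale (SE 0.13 each), and on centred arrays 4.23 to 4.30, so the other 4 lines lay within 1 SE of each other once arrays were centred. TAP2 read 1082, 1062 and 1190 in SK-N-AS, against 110, 109 and 131 in SH-SY5Y, 41.2, 49.5 and 38.9 in NGP, 430, 399 and 403 in BE(2)-C and 45.2, 38.0 and 38.5 in KELLY. BE(2)-C and SH-SY5Y thus kept intermediate TAP2 values on this probe set, while NGP and KELLY overlapped at the bottom. On a dimmer TAP2 set SH-SY5Y (23.1 ± 1.49) lay with NGP (26.2 ± 4.46) and KELLY (21.1 ± 1.45), all below the filter. The remaining TAP2 sets kept SH-SY5Y above both. SK-N-AS exceeded BE(2)-C 2.70-fold for TAP2 (log2 1.43, SE 0.10, limma adjusted p = 3.51e-12).

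Tapasin (TAPBP) read 1851, 1560 and 1934 in SK-N-AS, against 143, 133 and 140 in SH-SY5Y, 50.6, 46.7 and 34.9 in NGP, 465, 435 and 459 in BE(2)-C and 82.9, 105 and 94.9 in KELLY. The 5 lines did not overlap on this probe set, and NGP was called lower than all 4 other lines on both scales, as were 1.15% of tested genes on the deposited scale and 1.35% on centred arrays. This low value rested on the brightest TAPBP probe set: on the next brightest, NGP stood at 111 ± 3.12 and SH-SY5Y at 72.3 ± 10.3. SK-N-AS was the highest line on all 5 TAPBP probe sets, by 1.27 to 3.79 over the mean of the other 4 lines (log2, deposited scale). On centred arrays it stayed highest on each, but on the dimmer sets another line lay within 1 of it (log2). On the next brightest set the centred means were -0.85 in SK-N-AS and -1.35 (SH-SY5Y) to -1.12 (KELLY) elsewhere. The TAPBP call on centred arrays thus rests on the brightest set. Of 6 other chaperones tested, most of them also used by other proteins, only the tapasin relative TAPBPL was called higher in SK-N-AS than in all 4 other lines. It read 252 ± 5.28 in SK-N-AS, against 123 ± 10.5 in BE(2)-C, and 0 of 6 were called on centred arrays. The shares of all tested genes were 12.6% and, on centred arrays, 5.61%. CALR read 505 ± 22.0 in SK-N-AS and 601 ± 43.1 in BE(2)-C, and PDIA3 read 5570 ± 399 and 7287 ± 637 in the same lines.

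The largest differences belonged to the inducible proteasome subunits PSMB8 and PSMB9. PSMB8 read 3251, 3031 and 3310 in SK-N-AS, against 23.8, 29.0 and 31.0 in SH-SY5Y, 25.3, 24.7 and 28.7 in NGP, 90.4, 98.0 and 93.3 in BE(2)-C and 26.8, 21.6 and 19.7 in KELLY. PSMB9 read 1850, 1874 and 2000 in SK-N-AS, against 21.6, 20.4 and 17.6 in SH-SY5Y, 22.8, 30.1 and 24.0 in NGP, 31.3, 34.4 and 33.9 in BE(2)-C and 21.9, 20.0 and 29.7 in KELLY. BE(2)-C was above the other 3 low lines for PSMB8, while for PSMB9 its arrays lay at 31.3 or above and those of the other 3 lines at 30.1 or below, all of them dim. The difference between SK-N-AS and the mean of the other 4 lines was 6.46 for PSMB8 (SE 0.09) and 6.19 for PSMB9 (SE 0.11) on the log2 scale as measured, and 5.59 and 5.33 on centred arrays. For PSMB8, SK-N-AS exceeded BE(2)-C, the next line and the only other above the filter, 33.7-fold. For PSMB9, with all 4 other lines below the filter, it was at least 23.4-fold above each. PSMB10, the remaining inducible subunit, was different: it read 1566, 1524 and 1601 in SK-N-AS, against 289, 238 and 289 in SH-SY5Y, 597, 683 and 598 in NGP, 1239, 1083 and 1090 in BE(2)-C and 363, 414 and 408 in KELLY. It was above the filter on every array, and its difference of 1.57 (SE 0.07) shrank to 0.71 (SE 0.05) on centred arrays, under the threshold of 1.

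Each inducible subunit takes the place of a constitutive one, so their ratio within an array is free of the array's scale. The PSMB8 over PSMB5 ratio was higher in SK-N-AS than in BE(2)-C by 5.04 on the log2 scale. In the other 3 lines PSMB8 was below the filter, and with PSMB8 set at the filter the difference was at least 3.80 (SH-SY5Y) to 4.34 (NGP). PSMB9 was below the filter in all 4 other lines, and the PSMB9 over PSMB6 ratio was higher in SK-N-AS by at least 3.85 (over SH-SY5Y) to 5.29 (over BE(2)-C), bounds whose order follows PSMB6 alone. The PSMB10 over PSMB7 ratio, measured above the filter throughout, was higher in SK-N-AS by 0.39 (over BE(2)-C) to 0.95 (over SH-SY5Y). The SD of a line's 3 arrays was at most 0.32, and no test was run on these ratios. A ratio of 2 probe sets has no absolute meaning, so only its differences between lines are given. PSMB5 itself averaged 7326 ± 366 for SK-N-AS, 7176 ± 352 for BE(2)-C and 2614 ± 350 for SH-SY5Y.

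**Figure D2:**
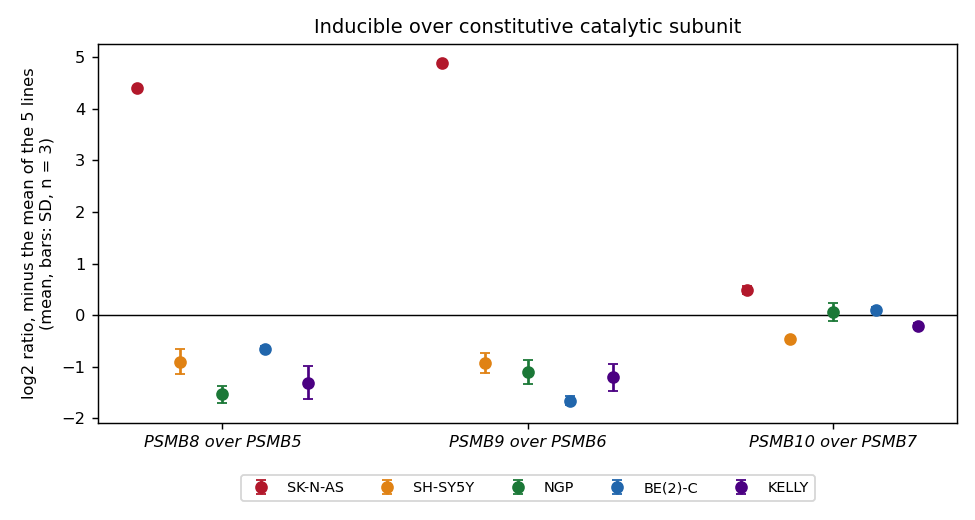
Log2 ratio of each inducible over its constitutive catalytic subunit within an array, minus the mean of the 5 lines (mean of 3 arrays, bars show SD). SK-N-AS lies 4.40 and 4.89 above that mean for PSMB8 over PSMB5 and PSMB9 over PSMB6, and 0.49 above it for PSMB10 over PSMB7. Values are as measured, and PSMB9 in the other 4 lines and PSMB8 in SH-SY5Y, NGP and KELLY were below the filter, so those points have no order.

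Among the other proteasome genes, 2 activator subunits shared this pattern and the core and assembly genes were not called. None of the 14 core and assembly genes was called higher in SK-N-AS than in all 4 other lines on either scale. Of all tested genes, 12.6% were so called on the deposited scale and 5.61% on centred arrays. Each of the 14 differed in at least 1 pair of lines on the deposited scale. PSMA1, a core subunit, was at 7489 ± 479 in SK-N-AS and 3901 ± 350 in BE(2)-C, and POMP, the maturation factor, at 9712 ± 790 and 6206 ± 223. Of 7 constitutive catalytic and activator subunits, 2 were called higher in SK-N-AS than in all 4 other lines on both scales. They were PSME1 (5118 ± 366 in SK-N-AS, against 1371 ± 86.8 or less) and PSME2 (4474 ± 323 in SK-N-AS, against 1805 ± 187 or less), which together form the interferon-inducible activator ring. PSME3, a related nuclear activator, read 1661 ± 150 in SK-N-AS and 1215 ± 66.8 in BE(2)-C and was not called against all 4.

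ERAP1, which trims peptides in the endoplasmic reticulum, read 680, 690 and 776 in SK-N-AS, against 51.7, 38.9 and 48.5 in SH-SY5Y, 118, 120 and 116 in NGP, 170, 170 and 167 in BE(2)-C and 45.9, 43.1 and 47.8 in KELLY. NGP and BE(2)-C were intermediate on this probe set, and SH-SY5Y and KELLY overlapped. On the other ERAP1 probe sets NGP lay below KELLY, with both below the filter. SK-N-AS exceeded BE(2)-C 4.21-fold (log2 2.07, SE 0.10, limma adjusted p = 1.05e-15). The related ERAP2 was below the filter in all lines, with 57.7 ± 8.75 in SK-N-AS, against at most 27.6 ± 6.63 elsewhere. Of 4 other peptidases tested, NPEPPS, a cytosolic aminopeptidase, was called higher in SK-N-AS than in all 4 other lines (4888 ± 329 in SK-N-AS, against 2113 ± 84.0 in BE(2)-C and less elsewhere), and 0 of 4 on centred arrays. The shares of all tested genes were 12.6% and, on centred arrays, 5.61%.

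NLRC5, the transactivator, read 273, 265 and 296 in SK-N-AS, against 24.8, 26.7 and 25.0 in SH-SY5Y, 43.1, 43.0 and 36.9 in NGP, 52.8, 59.9 and 61.7 in BE(2)-C and 29.7, 34.3 and 35.0 in KELLY. SK-N-AS was the only line above the filter and was at least 3.41-fold above each of the others. The difference from their mean was 2.85 (SE 0.09) on the log2 scale as measured, a description since the gene passed the filter through SK-N-AS. On centred arrays the 4 measured differences were all between 1.92 and 2.06. Other regulators of class I transcription split, with 4 of 12 called higher in SK-N-AS than in all 4 other lines on the deposited scale. The share of all tested genes was 12.6%. IRF1, which binds the interferon element, read 777 ± 30.8 in SK-N-AS, against 77.7 ± 6.47 or less. IRF1 reached the filter in SK-N-AS only and so had to be brightest there. IRF2, of the same family, read 1123 ± 72.4 in SK-N-AS, against 302 ± 14.7 or less, and NFKB1, an NF-kB subunit, 1731 ± 106 in SK-N-AS, against 480 ± 20.0 or less. These 3 were called on centred arrays too (5.61% of all tested genes were), while RELA was not. The RFX and NFY subunits, which form the complex that NLRC5 joins, were not among those called higher, and RFXAP was called lower in SK-N-AS than in all 4 other lines on centred arrays (deposited means of 177 ± 9.79 in SK-N-AS and 476 ± 33.0 in NGP, the highest line).

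Genes of interferon reception and signalling were called higher in SK-N-AS than in all 4 other lines for 4 of 9 tested, and for 1 of 9 on centred arrays. The shares of all tested genes were 12.6% and, on centred arrays, 5.61%. The gene called on centred arrays was IRF9, a subunit of the factor that binds the interferon element. It read 881 ± 20.0 in SK-N-AS, against 174 ± 6.79 or less. JAK1, a kinase of the interferon receptors, read 2764 ± 81.8 in SK-N-AS, against 932 ± 89.0 or less, and IFNGR2, a receptor chain for interferon gamma, 2135 ± 123 in SK-N-AS, against 975 ± 84.1 or less. IFNAR1 read 629 ± 54.7 in SK-N-AS and 643 ± 39.1 in BE(2)-C. None of 4 class II presentation genes tested was called higher in SK-N-AS than in all 4 other lines on either scale, and HLA-DRA was below the filter everywhere (36.6 ± 4.98 in SK-N-AS, against at most 28.0 ± 6.24 elsewhere).

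Ligands read by natural killer and T cells differed in direction. MICA and MICB, stress ligands of an activating natural killer receptor, read 780 ± 23.5 and 701 ± 14.2 in SK-N-AS, against 43.4 ± 2.00 and 83.7 ± 7.56 or less in the other lines. NECTIN2, an adhesion molecule recognised by these cells, read 1661 ± 176 in SK-N-AS, against 457 ± 19.8 or less. These 3 of 7 tested were called higher in SK-N-AS than in all 4 other lines on both scales. So were 12.6% of all tested genes on the deposited scale and 5.61% on centred arrays. MICA reached the filter in SK-N-AS only and so had to be brightest there. ULBP1, another ligand of the same activating receptor as MICA, was high in other lines, at 20.7 ± 6.46 in SK-N-AS, against 166 ± 19.6 in BE(2)-C and 156 ± 5.58 in KELLY, and was called lower than in all 4 other lines on centred arrays. Of 3 class I-like chains tested, MR1 was called higher in SK-N-AS than in all 4 other lines (211 ± 18.7 in SK-N-AS, against 75.2 ± 18.1 or less), and 0 of 3 on centred arrays. MR1 also reached the filter in SK-N-AS only.

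**Figure D3:**
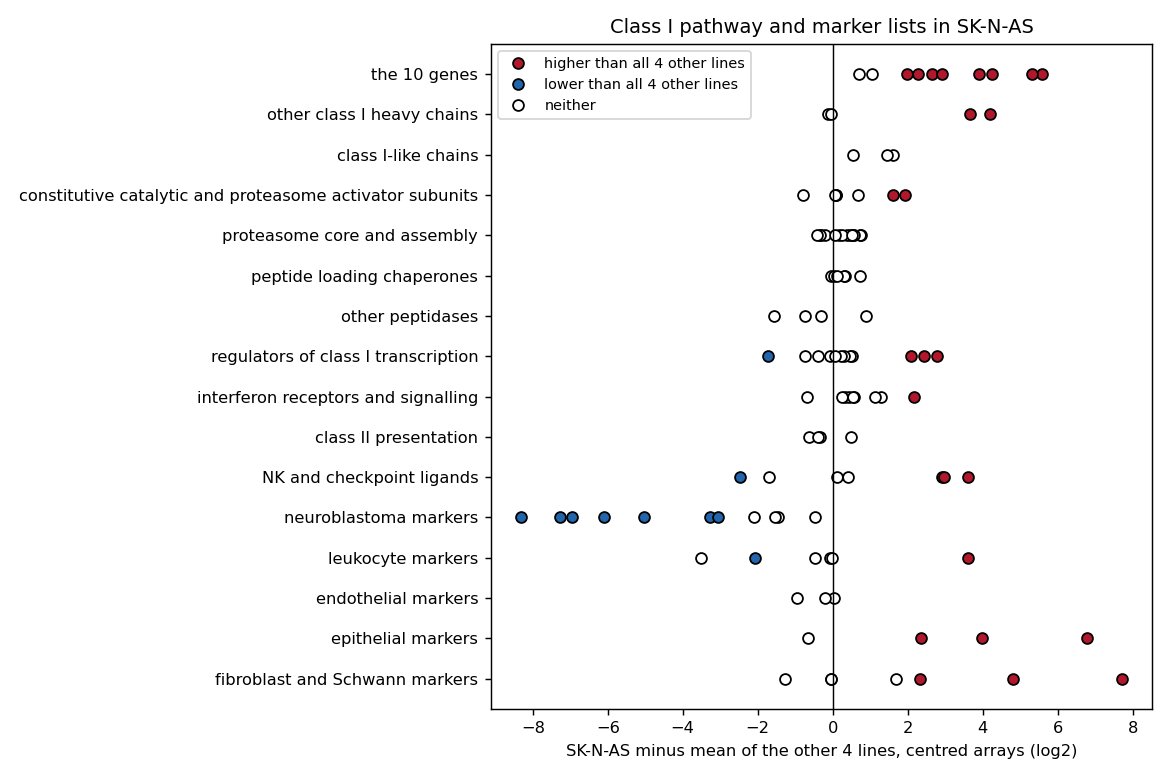
Log2 difference between SK-N-AS and the mean of the other 4 lines on centred arrays for each tested gene of the class I pathway and marker lists. Red points were called higher than all 4 other lines, blue points lower than all 4, and open points neither, so that 8 of the 10 genes and 0 of 14 core and assembly genes are red.

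Set against single lines, SK-N-AS was called higher for 10 of the 10 genes compared with SH-SY5Y, where 64.2% of all tested genes were called higher, and for 10 of 10 on centred arrays, where 11.5% were. Compared with NGP the counts were 10 of 10 (all tested genes 36.5%) and, on centred arrays, 9 of 10 (14.3%), with PSMB10 not called. Compared with KELLY they were 10 of 10 (49.1%) and, on centred arrays, 8 of 10 (13.5%), without B2M and PSMB10. Compared with BE(2)-C they were 8 of 10 on both scales, against 15.8% and 12.5% of all tested genes, again without B2M and PSMB10. These counts include TAP1, PSMB9 and NLRC5, which passed the filter through SK-N-AS only and had to be brightest there. All 3 were called in each of these comparisons, so the genes not called lie among the other 7. No gene of the 10 was called lower in SK-N-AS than in any line on either scale.

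**Figure D4:**
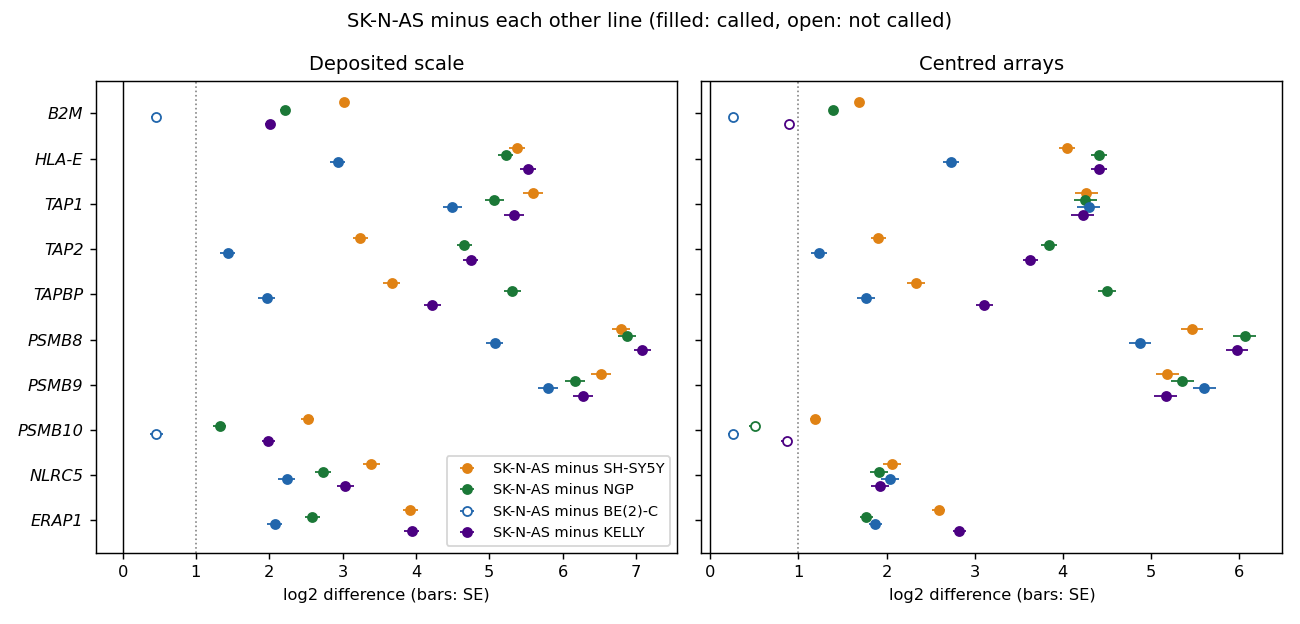
Log2 difference between SK-N-AS and each other line for the 10 genes, on the deposited scale (left) and on centred arrays (right). Points are limma estimates, bars their SE, filled points called and open points not, and all points lie above 0, with BE(2)-C nearest to SK-N-AS for B2M (0.46 and 0.25) and PSMB10 (0.46 and 0.26).

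Among the other 4 lines the order depended on the scale. On the deposited scale BE(2)-C was the next line after SK-N-AS for 10 of the 10 genes, and on centred arrays for 6. For TAP1, PSMB9 and NLRC5 the 4 other lines all lay below the filter, so their order there is one of dim values. SH-SY5Y was called lower than BE(2)-C for 9 of the 10 genes, where 53.6% of all tested genes were called lower, but for 2 of 10 on centred arrays, where 7.22% were. Those 2 were B2M (-1.44, SE 0.04) and HLA-E (-1.31, SE 0.09). The 9 include TAP1 and NLRC5, below the filter in both lines, with centred differences of 0.03 and -0.02. NGP was called lower than BE(2)-C for 5 of 10 genes on both scales, against 26.3% of tested genes and, on centred arrays, 8.96%. These were B2M, HLA-E, TAP2, TAPBP and PSMB8, with centred differences of -1.14 (B2M) to -2.73 (TAPBP). BE(2)-C was called higher than KELLY for 7 of 10 genes (all tested genes 39.2%) and, on centred arrays, for 4 of 10 (8.36%), namely HLA-E, TAP2, TAPBP and PSMB8.

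SH-SY5Y, NGP and KELLY differed less among themselves. SH-SY5Y and NGP differed in 4 of 10 genes on the deposited scale (all tested genes 23%) and in 2 of 10 on centred arrays (16.2%). TAP2 and TAPBP were higher in SH-SY5Y on both scales, by 1.42 and 1.65 on the log2 scale as deposited. NGP lay below the filter for both genes (43.2 ± 5.54 and 44.1 ± 8.15). SH-SY5Y and KELLY differed in 2 of 10 genes (15.7% of tested genes) and in 1 of 10 on centred arrays (14.9%). That gene was TAP2, 2.83-fold higher in SH-SY5Y (SE 0.10 on the log2 scale, limma adjusted p = 2.75e-12). NGP and KELLY differed in 2 of 10 genes on both scales, against 16.1% of tested genes and, on centred arrays, 14.1%. On the probe sets that stand for the genes, ERAP1 was 2.56-fold higher in NGP and TAPBP lower in NGP by 1.09 (log2). The lower line was below the filter in each case, KELLY for ERAP1 (45.6 ± 2.38) and NGP for TAPBP. The other ERAP1 sets put KELLY above NGP, both below the filter (55.9 ± 7.33 and 42.1 ± 4.84 on the next brightest). On the next brightest TAPBP set NGP (111 ± 3.12) stood above KELLY (98.9 ± 5.76) and SH-SY5Y (72.3 ± 10.3). On a dim TAPBP set it stood below both. The shares called among these lines were near those of all tested genes, apart from 4 of 10 for SH-SY5Y and NGP. Of the 40 steps between neighbouring lines in the 10 genes' orders on the deposited scale, 24 were not called.

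None of the 10 genes separated the lines by MYCN class: 0 were called the same way in all 6 pairs made of 1 line of each class, as 1.03% of tested genes were. Over line means, 3 amplified against 2 other lines, 0 of 10 were called (limma), against 0.33% of tested genes, and 6 had an unadjusted p under 0.05 on the deposited scale and 0 on centred arrays. The median amplified minus other difference of the 10 genes was -1.93 on the log2 scale, against 0.00 over all tested genes. The lines without amplification did not go together, since SK-N-AS was the highest of the 5 lines for all 10 genes while SH-SY5Y was below BE(2)-C for all 10 on the deposited scale. For TAP1, PSMB9 and NLRC5 both SH-SY5Y and BE(2)-C were below the filter. PSMB8 had the smallest p, with a mean log2 value of 5.30 in the amplified lines and 8.24 in the others (difference -2.95, SE 0.96, limma adjusted p = 0.22). This SE rests mostly on a variance shared over genes (69.9 prior degrees of freedom). With probe sets marked _s_at or _x_at left out, PSMB8 was called at the same difference (SE 0.79, adjusted p = 0.028).

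Most of the 41 probe sets showed the same line on top on the deposited scale, where SK-N-AS arrays were the brightest. SK-N-AS had the highest mean on 39. Of 37 bright enough to be tested, 25 were called higher in SK-N-AS than in all 4 other lines. On that scale 12.6% of tested genes were so called, and no share over all probe sets is given here. Some of the 25 reached the filter in SK-N-AS only and so had to be brightest there. They were the tested sets of TAP1, PSMB9 and NLRC5, and dimmer sets of HLA-E, TAPBP, PSMB8 and ERAP1. The 12 tested sets not called against all 4 were the 8 of B2M, the 3 of PSMB10 and 1 of TAPBP. The 2 sets with another line on top belonged to PSMB8 and PSMB9 and were dim on every array, with 28.0 ± 2.99 in SK-N-AS and 29.0 ± 0.812 in BE(2)-C for the PSMB8 set. On centred arrays these 2 sets had their lowest mean in SK-N-AS (-4.02 and -3.44). The dimmer NLRC5 set then did not set SK-N-AS apart (-3.19, against -3.22 in SH-SY5Y and -3.25 in KELLY). Among B2M sets, 2 held identical values on all arrays and so count as a single measurement. HLA-E differences between SK-N-AS and the mean of the other 4 lines ran from 3.67 to 5.33 over 6 sets, TAP2 from 2.58 to 3.52 over 4 and ERAP1 from 1.90 to 3.17 over 5 (log2).

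**Figure D5:**
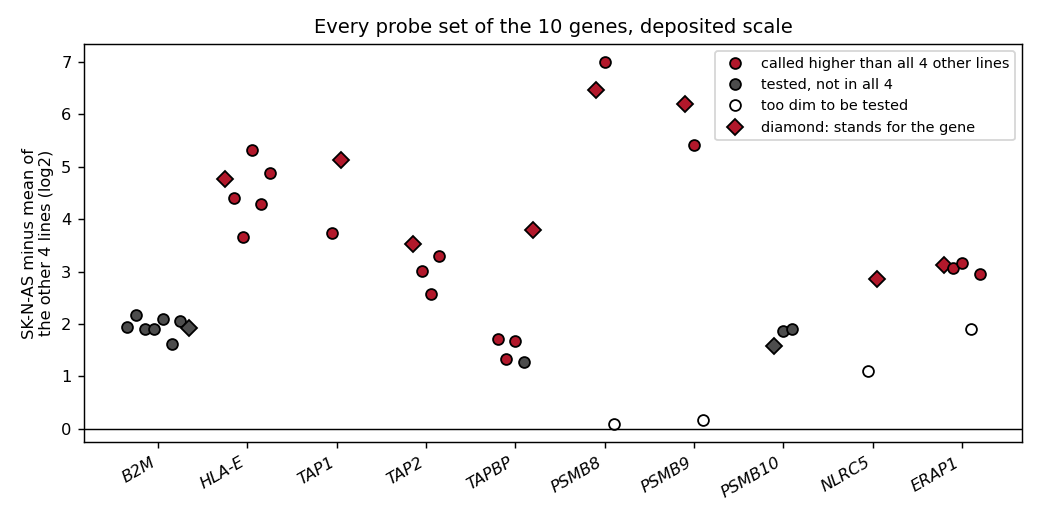
Log2 difference between SK-N-AS and the mean of the other 4 lines (deposited scale) for each of the 41 probe sets, by gene. Diamonds mark the probe set that stands for the gene, red points were called higher than all 4 other lines, grey points were tested without that call and open points were too dim to be tested. All points lie above 0, and the open PSMB8 and PSMB9 points lie at 0.09 and 0.16.

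TAP2, PSMB8, TAP1 and PSMB9 are neighbours in the class II region of the MHC. The tested genes at their flanks were not called higher in SK-N-AS than in all 4 other lines. In the RefSeq order of tested genes (GRCh38.p14), HLA-DQB1 lies before TAP2 and differed by 0.57 (SE 0.08) between SK-N-AS and the mean of the other 4 lines, and BRD2 lies after PSMB9 and differed by 0.77 (SE 0.07), the median of all tested genes. The 4 genes between them differed by 3.52 (TAP2) to 6.46 (PSMB8). HLA-DQB1 was dim, at 90.2 in SK-N-AS and at most 75.6 (BE(2)-C) elsewhere. Farther out, HLA-DRB1 differed by 0.49 (-0.38 on centred arrays) and HLA-DPA1 by 1.34 (0.48 on centred arrays). Next to TAPBP, RGL2 and DAXX differed by 0.79 and 0.83, and next to B2M, SPG11 and SHF by 1.21 and -0.07. Beside TAPBP, the more distant PFDN6 (1.46, against 0.60 on centred arrays) was called higher than in all 4 other lines on the deposited scale. Both neighbours of ERAP1 on one side were higher. CAST, the calpain inhibitor next to it, read 2547 in SK-N-AS, against at most 769 elsewhere, and CAST and the elongation factor gene ELL2 were called higher in SK-N-AS than in all 4 other lines (2.56 and 2.69 over their mean).

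The genes whose pattern was most like a member's were found by Pearson's r over the 15 centred arrays. With 3 arrays a line these values mostly reflect 5 line means and carry no test. They were IFITM2, IFITM3 and MYCT1 for TAP1 (r of 0.997, 0.996 and 0.996), ANXA1, LY6K and KRT18 for PSMB9 (0.997 each), COL3A1, B4GALT1 and TM4SF1 for PSMB8 (0.996, 0.994 and 0.992), and NNMT, IFITM2 and GIMAP2 for NLRC5 (0.995, 0.994 and 0.994). IFITM2 and IFITM3 are interferon-induced membrane proteins. For HLA-E they were GADD45B, SQSTM1 and VAMP5 (0.996, 0.994 and 0.993), and for ERAP1 P3H1, MYLIP and MTX1 (0.991, 0.986 and 0.986). B2M was most like MPP1 and PSMB10 most like PLEKHM1 (0.990 and 0.988).

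Markers of cell type moved with the same line. Of 11 neuroblastoma markers tested, 7 were called lower in SK-N-AS than in all 4 other lines on both scales, as were 2.12% of all tested genes on the deposited scale and 5.56% on centred arrays. Examples were the granule protein CHGA at 53.3 ± 8.22 in SK-N-AS and 5858 ± 491 or more elsewhere, and the axonal protein STMN2 at 83.2 ± 12.5 in SK-N-AS and 5148 ± 270 or more elsewhere. The lineage factor HAND2 was bright in all lines (11583 ± 772 in SK-N-AS and 6981 ± 636 to 11404 ± 309 elsewhere). The 11 markers summed to 16573 to 18455 on SK-N-AS arrays, against 34281 to 78422 on the others. Epithelial markers were higher in SK-N-AS for 3 of 4 tested on both scales, with the keratins KRT18 at 8602 ± 508 and KRT8 at 1394 ± 50.7 in SK-N-AS, against 58.2 ± 11.2 or less. Both keratins reached the filter in SK-N-AS only and so had to be brightest there. Called higher in SK-N-AS than in all 4 other lines were 12.6% of all tested genes as deposited and 5.61% on centred arrays. The 6 epithelial markers summed to 10459 to 11599 in SK-N-AS, against 249 to 720 elsewhere, while EPCAM (16.8 ± 2.34) and CDH1 (34.5 ± 4.21) were below the filter in SK-N-AS. Fibroblast and Schwann markers were higher in SK-N-AS for 3 of 7 tested on both scales, with the collagen COL3A1 at 17526 ± 739 in SK-N-AS, against 164 ± 12.2 or less. Their sum over 8 genes was 23370 to 24753 in SK-N-AS, against 365 to 2630 elsewhere.

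Leukocytes express class I processing genes strongly, so their markers are given as well. PTPRC, the leukocyte surface phosphatase, read 320 ± 24.6 in SK-N-AS, against 14.7 ± 2.17 or less, and was called higher on both scales (1 of 6 tested). The shares of all tested genes were 12.6% and, on centred arrays, 5.61%. PTPRC reached the filter in SK-N-AS only and so had to be brightest there. Of 16 leukocyte markers measured, 5 were above the filter in SK-N-AS, against 1 (SH-SY5Y) to 5 (BE(2)-C) in another line. TYROBP (152 ± 9.50 in SK-N-AS, against 62.5 ± 8.52 to 120 ± 5.03), CSF1R (100.3 ± 16.1 in SK-N-AS, against 42.6 ± 7.52 to 82.3 ± 3.86) and CD79A (113 ± 21.6 in SK-N-AS, against 55.3 ± 8.25 to 125 ± 8.63) differed from the mean of the other 4 lines by 0.78, 0.84 and 0.39 as deposited and by -0.09, -0.02 and -0.47 on centred arrays, with no call against all 4. CD3E (48.1 ± 3.04), CD2 (49.9 ± 5.42), CD14 (49.7 ± 12.2), LYZ (17.7 ± 6.90) and MS4A1 (36.2 ± 4.60) were below the filter in SK-N-AS. LCP1, an actin-bundling protein of leukocytes, read 36.6 ± 5.35 in SK-N-AS and was highest in KELLY (1220 ± 17.1), and CORO1A (127 ± 12.7 in SK-N-AS, against 552 ± 36.7 in BE(2)-C) was called lower in SK-N-AS than in all 4 other lines on centred arrays. The 16 markers summed to 1184 to 1364 in SK-N-AS, within the range of 611 to 2233 in the other lines. The 6 endothelial markers summed to 375 to 445 in SK-N-AS and 190 to 576 elsewhere. Of the RNA controls, the 3' minus 5' log2 difference of ACTB was 0.71 ± 0.06 in SK-N-AS and 0.97 ± 0.07 to 1.23 ± 0.08 elsewhere. That of GAPDH did not set SK-N-AS apart, at 0.19 ± 0.05 in SK-N-AS and 0.18 ± 0.02 (BE(2)-C) to 0.35 ± 0.03 (SH-SY5Y) elsewhere (SD, n = 3 each). The part of these marker and RNA differences in the class I results was not tested.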

How the data were processed

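RNA of 5 neuroblastoma lines was labelled from 100 ng per sample and hybridised to 15 arrays, with ERCC controls added at lysis, per the labels' protocols. The deposited table gives linear intensity values for 49494 probe sets. Per the submitters' processing notes the tool was MAS5. For its version, background correction and normalization, nothing is given in the sources used here. Of the probe sets, 45283 named 1 gene, 1333 named several and were not used, and a gene was represented by the probe set with the highest mean log2 value. Here values were transformed as log2(intensity + 1), and means of the 5 lines were fitted over all 12721 tested genes with limma 3.58.1 in R 4.3.3, using an intensity-dependent prior variance. P-values were adjusted over all tested genes within a contrast. For the MYCN classes a limma model used the 5 line means. Arrays give no depth, and their number limits the precision. The fit was tested on simulated data. The genes, the lists and the tests were chosen with earlier results of these data known. Named by rule were the 10 genes, MYCN, up to 4 widely varying genes of each list, bright cell type markers, neighbours in RefSeq order, and the most alike genes. Genes named beyond this (ERAP2, PSMB5, RFXAP, HLA-DRA, HAND2, EPCAM, CDH1, CSF1R, CD79A and the dim leukocyte markers) were chosen after their values were seen.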

Additional observations from a re-analysis of the deposited data

How the results depend on the processing

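Alternatives were centred arrays, equal ERCC medians, quantile normalization, log2(intensity + 32), no filter, the mean of all probe sets, no _s_at or _x_at probe sets, no trend in the prior, a replicate block and leaving out each of the 15 arrays. None reversed the difference between SK-N-AS and the mean of the other 4 lines for any of the 10 genes. Between pairs of lines, 15 of 100 differences changed sign on centred arrays, 0 of them with SK-N-AS in the pair and 1 called on the deposited scale (TAP1, SH-SY5Y minus BE(2)-C, -1.10 as deposited and 0.03 centred). In all, 268 counts of called genes stayed within 1.5 times the reported one. The counts for SK-N-AS against each other line were among them. The 19 others were as follows. SH-SY5Y and NGP differed in 4 genes, but in 2 on centred arrays, 2 after quantile normalization, 2 with log2(intensity + 32) and 1 with the mean of probe sets. SH-SY5Y and BE(2)-C differed in 9, but in 2 on centred arrays and 3 after quantile normalization. SH-SY5Y and KELLY differed in 2, but in 1 on centred arrays, with equal ERCC medians, after quantile normalization, with the mean of probe sets and without _s_at and _x_at sets, and in 1 to 2 with an array left out (1 without SH-SY5Y replicate 2 or KELLY replicate 3). NGP and KELLY differed in 2, but in 0 with log2(intensity + 32) and with the mean of probe sets, in 1 without _s_at and _x_at sets, and in 1 to 2 with an array left out (1 without NGP replicate 3). BE(2)-C and KELLY differed in 7, but in 4 on centred arrays. Between the classes over line means 0 genes were called, and 1 without _s_at and _x_at sets. The causes were not tested. The PSMB10 difference of 1.57 fell under the threshold on centred arrays (0.71) and after quantile normalization (0.62). Without _s_at and _x_at sets HLA-E had no probe set and NLRC5 was too dim to be tested. Replicate numbers did not pair the arrays: same-numbered arrays of different lines had correlated deviations of -0.23 to 0.23 (median -0.04), and 3 of 15 arrays correlated best with their own number. With the replicate block, the count for SH-SY5Y and BE(2)-C was 9 and no call count moved by over 1.5 times.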
